A study of Homo sapiens with 4 samples.

Results

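Genes of cholesterol synthesis, its control and its export were examined in THP‐1 sublines that express Siglec‐14 or Siglec‐5. The list holds 30 genes, and 27 of them, of 19775 genes in all, had at least 1 probe set annotated to that gene alone. Of the remaining members, CYP51A1 has only probe sets that are also listed for another gene, and FDFT1 and NR1H2 are not analysed here. Each gene is represented by the probe set with the highest mean signal over the 4 arrays. THP‐1 cells derive from a human monocytic leukemia, and each subline carries 1 of the paired receptors, so that the lines serve as models of monocytes with Siglec‐14 (wild type) and without it (homozygous SIGLEC14‐null). Each line was kept for 6 h in serum-free medium for macrophages, either alone or with heat-killed nontypeable Haemophilus influenzae (NTHi) strain 2019 at 100 bacteria per cell. The 4 samples, with 1 array each, are named by receptor and stimulation, as Siglec‐14,NTHi[−] for unstimulated and Siglec‐14,NTHi[+] for stimulated cells, and likewise for Siglec‐5. There is no replicate of any condition, so a ratio of a pair of arrays carries no error and no test, and the number of arrays limits the precision. The sublines are called the Siglec‐14 line and the Siglec‐5 line. Values are signal intensities on a linear scale, and where 4 signals are listed, those of the Siglec‐14 line without and with NTHi come before those of the Siglec‐5 line.

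Cholesterol is built from acetyl-CoA through mevalonate, isoprenoid diphosphates, squalene and lanosterol. When sterols in the endoplasmic reticulum fall, SCAP carries the SREBP transcription factors to the Golgi for cleavage, and they raise the genes of the pathway, while INSIG proteins hold SCAP back when sterols are plentiful. Oxysterols activate the liver X receptors (LXR), which raise export genes and the ligase MYLIP. In macrophages, the balance between synthesis, uptake and export sets the load of cholesterol esters.

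SREBP factors act with NF-Y and Sp1 at promoters of this pathway, so the stretches in front of 4 members are shown. SREBF2 is the 1 member whose upstream 250 bases hold the sterol response element searched here, HMGCS1 and INSIG1 are classical SREBP targets, and SREBF1 was the member past 1.5-fold with NTHi in opposite directions in the lines. Each run is the 150 bases before the RefSeq transcription start (GRCh38.p14), on the strand of the gene. Capitals mark matches on either strand to the sterol response element TCACNCCAC, the E-box CACGTG, the inverted CCAAT box ATTGG of NF-Y and the GC box GGGCGG of Sp1. Matches that touch or overlap form 1 run of capitals. For HMGCS1, the first of 2 listed starts is shown.
SREBF2, chr22:41832955-41833104, plus strand: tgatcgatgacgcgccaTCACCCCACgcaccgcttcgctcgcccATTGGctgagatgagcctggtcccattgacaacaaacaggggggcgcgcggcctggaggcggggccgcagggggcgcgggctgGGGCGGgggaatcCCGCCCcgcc
HMGCS1, chr5:43313413-43313562, minus strand: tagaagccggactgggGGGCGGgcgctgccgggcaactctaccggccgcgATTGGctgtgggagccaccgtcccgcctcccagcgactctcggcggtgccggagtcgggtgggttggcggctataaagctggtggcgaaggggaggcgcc
INSIG1, chr7:155297728-155297877, plus strand: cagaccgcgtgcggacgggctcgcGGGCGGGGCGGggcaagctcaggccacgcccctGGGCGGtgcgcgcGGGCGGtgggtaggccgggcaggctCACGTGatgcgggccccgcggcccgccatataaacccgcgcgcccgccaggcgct
SREBF1, chr17:17836987-17837136, minus strand: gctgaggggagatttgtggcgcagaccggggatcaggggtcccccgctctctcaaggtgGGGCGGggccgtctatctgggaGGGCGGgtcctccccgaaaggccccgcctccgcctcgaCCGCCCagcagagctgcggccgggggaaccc

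In SREBF2, the sterol response element starts 133 bases before the transcription start and an inverted CCAAT box 106 bases before it. INSIG1 holds GC boxes and an E-box that starts 55 bases before its start. The upstream 250 bases were found for 26 of the 30 members. An inverted CCAAT box was present in 19 of these 26 (73.1%), against 37% of 27305 genes with a promoter in the table and 42.9% of 6268 genes with bright probe sets on these arrays. A GC box was present in 25 of 26 (96.2%), against 46.2% and 75.7%. The sterol response element was present in 1 of 26 (3.85%), against 1.09% and 1.08%, and an E-box in 4 of 26 (15.4%), against 7.73% and 12%. These are matches of letters, with the starts of a gene pooled, and they do not show binding.

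Signals of the 4 arrays had medians between 15.1 and 16.5, and a member was taken as seen above background in a comparison when the larger of its signals was at least 16.02, the median over all arrays, which is called the floor. Of the 27 measured members, 26 reached the floor on at least 1 array, 24 on all arrays, and 20 lay at or above the 75th percentile of all signals (105) on all arrays. ABCA1 stayed below the floor on all 4 arrays. Bright genes were not level between the arrays. Over 7335 genes at or above the 75th percentile on all arrays, the median log2 signal ratio with NTHi was 0.09 in the Siglec‐14 line (SD across genes 0.19) and -0.11 in the Siglec‐5 line (SD 0.20). Between the lines, the Siglec‐14 line over the Siglec‐5 line, it was -0.17 without NTHi (SD 0.34) and 0.03 with NTHi (SD 0.35). These medians stand beside the ratios of the members. Of 7 measured markers of monocytic cells, 6 reached the floor, among them LYZ (3036 to 3430 over the arrays), and CD14 was below the floor on all 4 arrays. The probe set of SIGLEC5 had signals of 21.3, 19.5, 4.13 and 21.6. The sources used here do not say whether it lies in the sequence introduced into the line, so it does not check the labels, and SIGLEC14 is not analysed here.

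**Figure D1:**
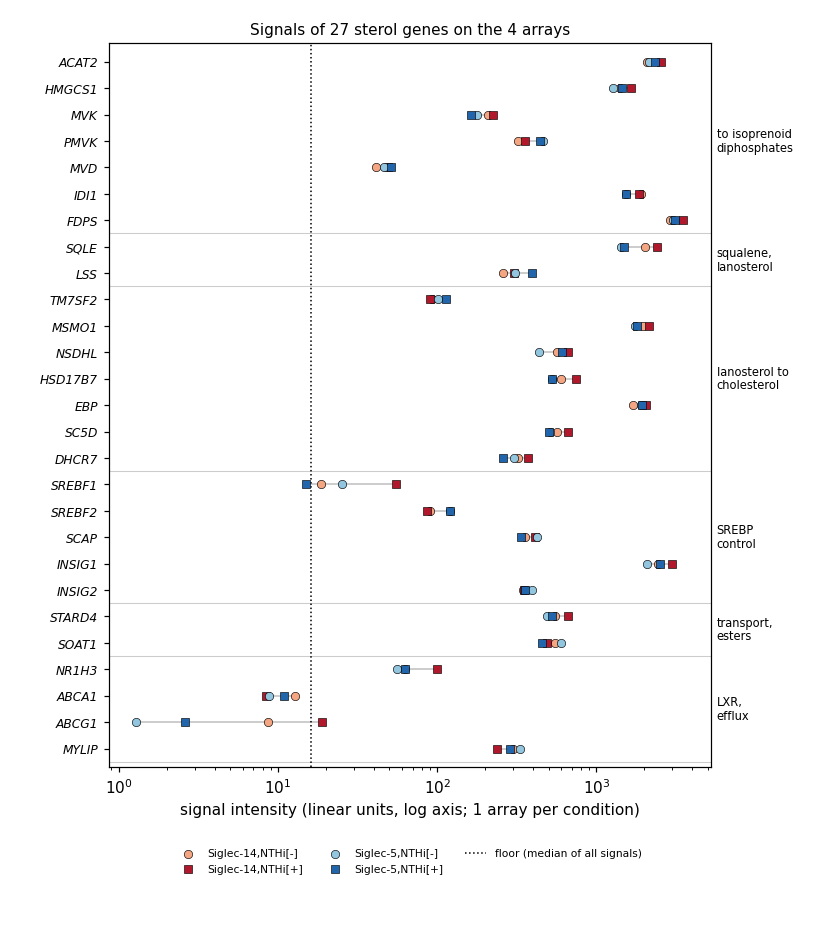
Signal intensity (log axis) of the 27 measured members on the 4 arrays, grouped by role, with 1 point per array and the floor of 16.02 as a dotted line. Points of the synthesis enzymes lie close together, with a highest over lowest signal of 1.20 for EBP to 1.69 for SQLE, while SREBF1 spans 15.0 to 55.2 and ABCG1 reaches the floor only in Siglec‐14,NTHi[+].

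The enzymes of cholesterol synthesis differed little between the 4 arrays. Over the 16 measured of 18 enzymes, the highest signal was 1.20 to 1.69 times the lowest, with a median of 1.31. With NTHi, none of the 16 was 1.5-fold higher or lower in either line on its representative probe set. Over all genes seen above background, 7.9% were higher by 1.5-fold or more and 6.42% lower with NTHi in the Siglec‐14 line, and 5.99% and 8.98% in the Siglec‐5 line. Among genes reaching the 75th percentile, these shares were 2.5%, 0.334%, 1.22% and 1.18%. The absence of calls among 16 enzymes lies near these last shares. The highest over lowest signal was not computed over all genes, so a steadiness particular to the enzymes is not shown.

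On the representative probe sets, the small differences with NTHi leaned upward. In the Siglec‐14 line, 14 of 16 enzymes were higher with NTHi, with a median log2 ratio of 0.23, and in the Siglec‐5 line 11 of 16 were higher, with a median of 0.05. Of the 7335 bright genes, 72.8% and 23.2% were higher with NTHi in these lines. Most bright genes thus also leaned upward in the Siglec‐14 line. Of 26 other probe sets of the members that reached the floor, 21 had the sign of the representative with NTHi in the Siglec‐14 line. In the Siglec‐5 line 13 of 26 did, so the sign counts there depend on the choice of probe set. Set against the bright genes of the same arrays, 14 of 16 enzymes lay above the median of 0.09 in the Siglec‐14 line and 14 of 16 above the median of -0.11 in the Siglec‐5 line. The enzyme median exceeded that of bright genes by 0.14 and 0.16. For 6 housekeeping genes the same excess was 0.08 and 0.13, so genes outside the pathway had an offset in the same direction. A shared response to NTHi was tested with limma, with the cell line as an additive term and all 4 arrays. No member passed in either direction at an adjusted p under 0.05 on its representative probe set, against 0.99% of all genes higher and 0.294% lower. The design leaves 1 residual degree of freedom, and the errors come from the trend of variance with intensity. Without the trend, 0 of 26 members passed and 1 had an unadjusted p under 0.05 from limma. Across all that was fitted, these counts were 0 and 1941, so the members are not set apart here.

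**Figure D2:**
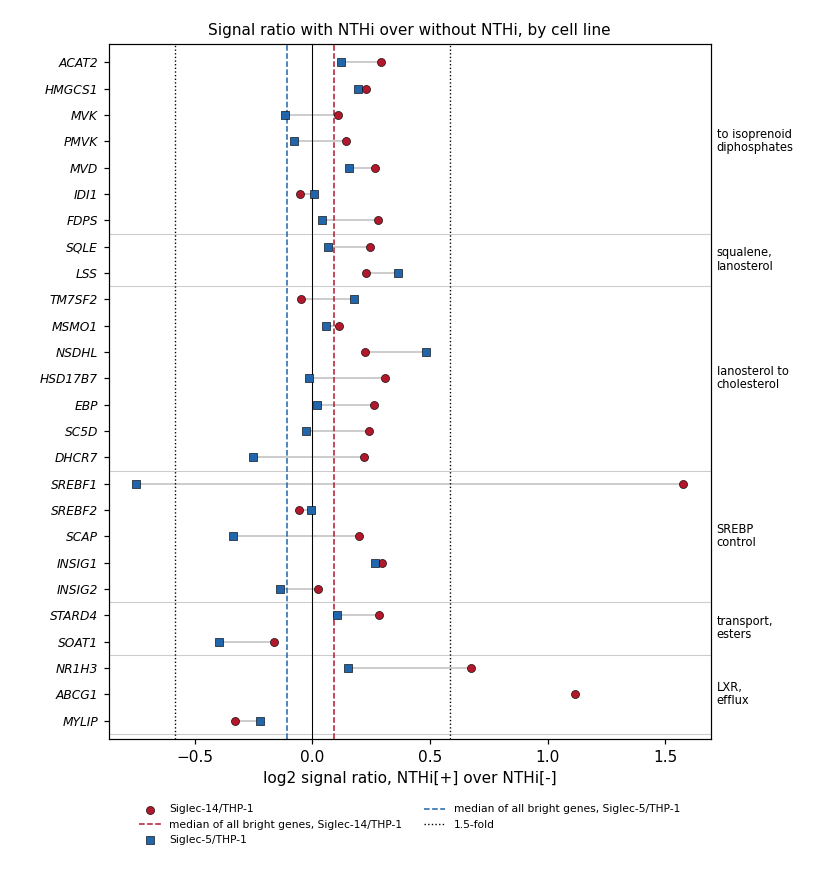
Log2 signal ratio with NTHi over without NTHi for members whose higher signal reached the floor, in the Siglec‐14 line (red circles) and the Siglec‐5 line (blue squares). Dashed lines mark the medians of 7335 bright genes (0.09 and -0.11) and dotted lines 1.5-fold. SREBF1 lies past 1.5-fold on opposite sides in the 2 lines, and the enzymes lie between the dotted lines.

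At the head of the pathway, ACAT2 joins acetyl-CoA units and HMGCS1 makes HMG-CoA. ACAT2 had signals of 2066 and 2529 without and with NTHi in the Siglec‐14 line and 2132 and 2322 in the Siglec‐5 line, higher with NTHi in both lines by 1.22-fold and 1.09-fold. HMGCS1 had 1409 and 1649 against 1266 and 1450, or 1.17-fold and 1.15-fold with NTHi. The dimmer of its 2 probe sets had a larger ratio. There HMGCS1 went from 241 to 369 (1.53-fold) in the Siglec‐14 line and from 211 to 344 (1.63-fold) in the Siglec‐5 line, and this probe set passed the shared limma fit for NTHi (adjusted p = 0.00736). The call of HMGCS1 thus rests on the choice of probe set.

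The following steps phosphorylate and decarboxylate mevalonate (MVK, PMVK, MVD), isomerize the product (IDI1) and condense it to farnesyl diphosphate (FDPS). MVK had signals of 209 and 225 in the Siglec‐14 line and 177 and 163 in the Siglec‐5 line. PMVK ran the other way between the lines, with 320 and 354 against 465 and 440. It was 1.45-fold lower in the Siglec‐14 line without NTHi and 1.246-fold lower with NTHi. MVD was dim, with 41.1 and 49.3 against 46.3 and 51.6, and its highest signal was 1.26 times the lowest. IDI1 had 1912 and 1846 against 1535 and 1542, and FDPS 2893 and 3509 against 3020 and 3106. Neither of these differed by 1.5-fold in any comparison.

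SQLE, the squalene epoxidase and a control point of the sterol branch, was the enzyme with the widest spread. Without and with NTHi, its signals were 2032 and 2407 in the Siglec‐14 line against 1425 and 1494 in the Siglec‐5 line. Both arrays of the Siglec‐14 line lay above both arrays of the Siglec‐5 line, by 1.43-fold without and 1.61-fold with NTHi. The line term of the limma fit was a log2 difference of 0.60 with a standard error of 0.16 (adjusted p = 0.00266). SQLE was the 1 member of 26 that passed this term, against 6.24% of all genes higher and 4.95% lower in the Siglec‐14 line. A second SQLE probe set had 354 and 375 against 214 and 243 (adjusted p = 0.000761), and another 649 and 726 against 475 and 448 (adjusted p = 0.0037). The dimmest had 34.9 and 39.0 against 30.4 and 31.0 and did not pass. Without the variance trend, the line term of SQLE had an adjusted p of 0.427, and no probe set on the array passed.

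LSS, which closes the sterol rings to lanosterol, had 259 and 304 in the Siglec‐14 line and 308 and 396 in the Siglec‐5 line. It was higher with NTHi in both lines, by 1.17-fold and 1.29-fold, and lower in the Siglec‐14 line than in the Siglec‐5 line by 1.19-fold and 1.304-fold. On the representative probe sets, SQLE and LSS, consecutive steps, differed between the lines in opposite directions, LSS without passing the line term of limma (adjusted p = 0.264). A dimmer LSS probe set had the same directions, with 30.5 and 44.7 against 49.6 and 54.2. The dimmest had 14.4 and 29.1 against 26.8 and 16.4. There LSS was higher in the Siglec‐14 line with NTHi, and lower with NTHi in the Siglec‐5 line.

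The enzymes that turn lanosterol into cholesterol remove methyl groups (MSMO1, NSDHL, HSD17B7), reduce, shift and introduce double bonds (TM7SF2, EBP and SC5D in that order) and end with DHCR7, which reduces the immediate precursor. NSDHL had the largest ratio with NTHi among the enzymes, 436 and 610 in the Siglec‐5 line (1.40-fold), against 566 and 661 in the Siglec‐14 line (1.17-fold). On its other probe set, NSDHL had 419 and 410 in the Siglec‐5 line, so that ratio was not shared by both probe sets. HSD17B7 had 603 and 748 in the Siglec‐14 line and 529 and 524 in the Siglec‐5 line. DHCR7 had 321 and 374 against 306 and 257, which made it 1.45-fold higher in the Siglec‐14 line with NTHi and 1.05-fold higher without NTHi. Its other probe set gave 1.19-fold with NTHi and 1.40-fold without. SC5D had 562 and 664 against 511 and 501, MSMO1 1967 and 2128 against 1737 and 1805, EBP 1708 and 2050 against 1902 and 1929, and TM7SF2 93.2 and 90.1 against 101 and 114. All 7 enzymes stayed within 1.5-fold in the 4 comparisons.

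The regulators divided into steady and variable members. INSIG1, an SREBP target that retains SCAP, had 2422 and 2970 in the Siglec‐14 line and 2090 and 2515 in the Siglec‐5 line. It was higher with NTHi by 1.23-fold and 1.20-fold, close to the same ratio in both lines. INSIG2 had 346, 352, 393 and 358, the narrowest range of all members seen above background (1.14-fold). SCAP had 357 and 409 against 424 and 336, higher with NTHi in the Siglec‐14 line (1.15-fold) and lower in the Siglec‐5 line (1.26-fold). SREBF2, which encodes the SREBP that governs sterol synthesis, had 90.1 and 86.7 against 121 and 120. On this representative probe set it was 1.34-fold and 1.39-fold lower in the Siglec‐14 line and level with NTHi in both lines. The dimmest SREBF2 probe set had 21.2 and 31.2 against 46.0 and 63.6, higher with NTHi by 1.47-fold and 1.38-fold. It passed the line term of limma (adjusted p = 0.00967), which the representative probe set did not (adjusted p = 0.168). The remaining SREBF2 probe set had 75.8 and 78.2 against 80.7 and 91.0, a smaller difference between the lines (adjusted p = 0.799 from limma).

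SREBF1, whose SREBP products favour fatty acid synthesis and which is itself an LXR target, moved in opposite directions with NTHi. Without and with NTHi, its signals were 18.5 and 55.2 in the Siglec‐14 line against 25.2 and 15.0 in the Siglec‐5 line. The Siglec‐14,NTHi[+] array stood apart from the other 3, which lay near the floor. SREBF1 was 2.98-fold higher with NTHi in the Siglec‐14 line and at least 1.57-fold lower in the Siglec‐5 line. Between the lines it was 1.36-fold lower in the Siglec‐14 line without NTHi and at least 3.45-fold higher with NTHi. Neither term of the shared fit passed (adjusted p of 1.0 for NTHi and 0.349 for the line), and the design gives no test of the difference between the responses. The other probe set of SREBF1 was below the floor on all 4 arrays.

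Inside the cell, STARD4 carries cholesterol between membranes and SOAT1 esterifies it for storage. STARD4 had 548 and 667 in the Siglec‐14 line and 490 and 527 in the Siglec‐5 line, higher with NTHi by 1.22-fold and 1.08-fold. SOAT1 had 550 and 492 against 602 and 456. It was lower with NTHi by 1.12-fold and 1.32-fold, opposite in direction to STARD4 and to most enzymes.

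The export genes were dim in these cells. NR1H3, which encodes LXRα, had 62.6 and 99.9 in the Siglec‐14 line and 56.2 and 62.5 in the Siglec‐5 line. Siglec‐14,NTHi[+] stood above the other 3 arrays, 1.59-fold over unstimulated cells of its line and 1.60-fold over stimulated cells of the Siglec‐5 line. NR1H3 has 1 probe set, and the limma terms did not pass (adjusted p = 0.875 for NTHi and 0.32 for the line). ABCA1, the exporter that loads cholesterol onto apolipoprotein particles, ran from 8.45 to 12.7, below the floor. ABCG1, a second exporter, had 8.68 and 18.8 in the Siglec‐14 line and 1.28 and 2.59 in the Siglec‐5 line. Only the array of Siglec‐14,NTHi[+] reached the floor, so ABCG1 was at least 1.17-fold higher there than in unstimulated cells of its line and in stimulated cells of the Siglec‐5 line, and its other 3 probe sets stayed below the floor. MYLIP, a ubiquitin ligase that removes lipoprotein receptors from the cell surface, had 299.6 and 238 in the Siglec‐14 line and 332 and 285 in the Siglec‐5 line. It was lower with NTHi by 1.26-fold and 1.17-fold. The other MYLIP probe sets that reached the floor were also lower in both lines, except a dim one. That one was 1.55-fold higher with NTHi in the Siglec‐14 line (29.1 and 45.0) and lower in the Siglec‐5 line.

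Counted over the members, 3 of 26 passed 1.5-fold upward with NTHi in the Siglec‐14 line (SREBF1, ABCG1 and NR1H3) and 0 lower. In the Siglec‐5 line, 0 of 25 were higher and 1 lower, SREBF1. The background shares in the same order were 7.9%, 6.42%, 5.99% and 8.98%. Taken against the floor, ABCG1 did not reach 1.5-fold.

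Between the lines without NTHi, the members were evenly divided. Over the 26 members at or above the floor on 1 or more arrays, 13 had higher signals in the Siglec‐14 line and 13 in the Siglec‐5 line, with a median log2 ratio of 0.01, and with NTHi 19 were higher in the Siglec‐14 line, with a median of 0.21. All genes that reached the floor had medians of -0.12 and 0.06, and 37% and 57.2% of them were higher in the Siglec‐14 line. Over the 20 members at or above the 75th percentile on all arrays, the median log2 ratio of the Siglec‐14 line to the Siglec‐5 line was 0.10 without NTHi and 0.21 with NTHi. This exceeded the medians of bright genes by 0.27 and 0.18, and 16 of 20 lay above them in each condition. For housekeeping genes the excess was 0.07 and 0.02. The 8 members with a mean signal of at least 1000 had medians of 0.17 and 0.21, where 1884 genes of that brightness had -0.20 and 0.01. PMVK, MVD and LSS were the enzymes below the bright-gene median in both conditions. Without NTHi, 0 of 25 members differed by 1.5-fold in either direction, against 11.3% of all genes higher and 11.6% lower. With NTHi, 4 of 26 were higher in the Siglec‐14 line (SQLE, SREBF1, ABCG1 and NR1H3) and 0 lower, against 15.1% and 7.65%. These counts use the measured signals, and ABCG1, which reached the floor on 1 array, is at least 1.17-fold higher against the floor and so falls short of 1.5-fold there. With the floor at the 75th percentile, SQLE was the 1 member of 22 called, with NTHi, against 7.99% of all genes higher and 2.99% lower, and without NTHi no member was called, against 4.56% and 7.29%. Both comparisons use arrays that also enter the NTHi ratios, so the comparisons are not independent of each other.

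**Figure D3:**
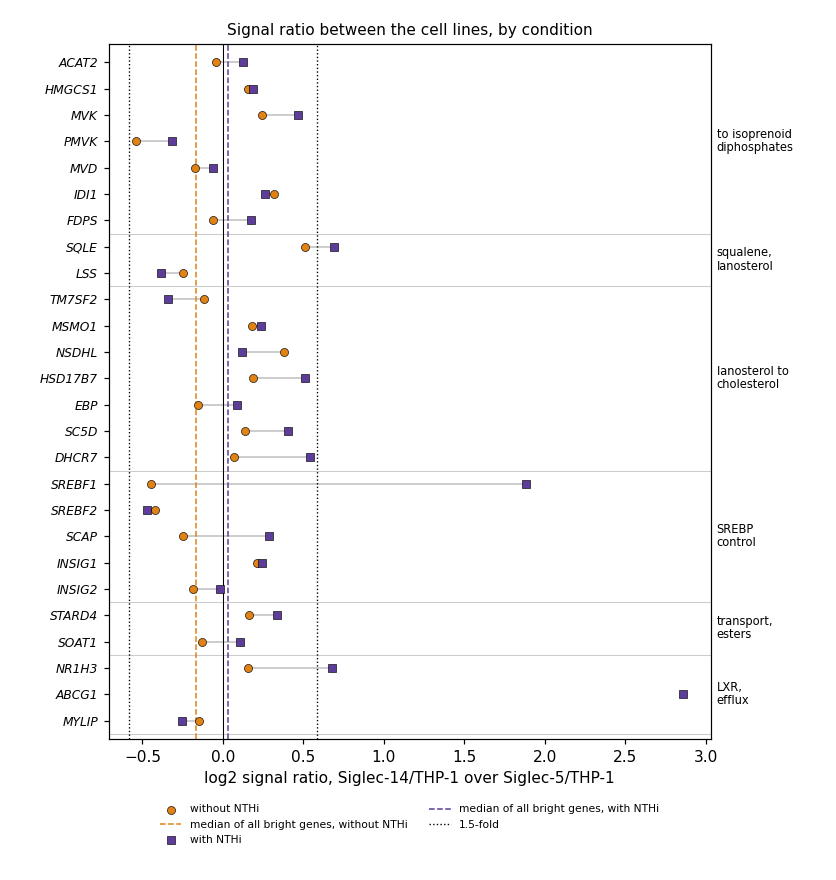
Log2 signal ratio of the Siglec‐14 line over the Siglec‐5 line for members whose higher signal reached the floor, without NTHi (orange circles) and with NTHi (purple squares). Dashed lines mark the medians of 7335 bright genes (-0.17 and 0.03) and dotted lines 1.5-fold. SQLE is above both medians in both conditions, PMVK and LSS are below them, and SREBF1 changes side. Points are ratios of the signals as measured, also where 1 signal is below the floor.

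The number of members that passed the line term depended on how the arrays were levelled. With signals as deposited it was SQLE alone. With each array scaled on its bright probe sets, an alternative chosen after seeing the data, 12 of 26 were higher in the Siglec‐14 line, against 15.3% of all genes, and 1 lower (PMVK), against 11.6%. The 12 were HMGCS1, MVK, IDI1, FDPS, SQLE, MSMO1, NSDHL, HSD17B7, SC5D, DHCR7, STARD4 and INSIG1. Quantile normalization called the same 12 higher (11% of all genes) and PMVK and SREBF2 lower (11.3%). Scaling on the trimmed mean called 11 of the 12 higher, without FDPS (13.5%), and PMVK lower (13%), and scaling on the median called 2 higher (7.41%), SQLE and HSD17B7, and 3 lower (15.8%), PMVK, LSS and SREBF2. Under the scaling on bright probe sets, the line term of INSIG1 was 0.30 in log2 units with a standard error of 0.05 (adjusted p = 3.94e-08), and that of IDI1 was 0.36 with a standard error of 0.06 (adjusted p = 3.1e-09). For NTHi, the same scaling called 5 of 26 higher, ACAT2, HMGCS1, FDPS, NSDHL and INSIG1, against 3.76% of all genes, and SOAT1 lower, against 1.95%. Scaling on the trimmed mean called the same 5 higher (3.71%) and SOAT1 lower (1.71%). Median scaling called NSDHL and INSIG1 higher (2.12%) and none lower (0.481%), and quantile normalization called INSIG1 higher (1.64%) and none lower (0.739%). The sizes stayed small, at 0.29 on the log2 scale for INSIG1 and 0.36 for NSDHL. These are calls of the representative probe sets, and the dimmest INSIG1 probe set was near level with NTHi in the signals as deposited. Between the lines as deposited, that probe set was 1.14-fold and 1.19-fold higher in the Siglec‐14 line without and with NTHi. The remaining INSIG1 probe set was near level, at 1.05-fold and 1.04-fold. A second bright IDI1 probe set was 1.09-fold and 1.21-fold higher, and its dim ones were lower without and higher with NTHi. SQLE passed the line term, higher in the Siglec‐14 line, with the signals as deposited and under each of these 4 scalings.

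Markers moved between the lines as well. Of 8 measured markers of other cell types, 7 reached the floor on at least 1 array. Their summed signal was 2752 and 2819 in the Siglec‐14 line and 1115 and 937 in the Siglec‐5 line, and most of it was PECAM1, an adhesion molecule that monocytes also carry (2307 and 2376 against 771 and 627). CD3E, a T cell marker, was below the floor on all arrays. CD3D, also a T cell marker, had 19.8 and 12.4 against 5.89 and 21.3 and reached the floor on 2 arrays. CD79A, HBB and EPCAM were above the floor on all 4 arrays. COL1A1, a collagen of fibroblasts, had 266 and 257 against 141 and 132 (adjusted p = 2.73e-06 from limma). The 7 monocytic markers summed to 4972 and 5148 against 4870 and 4656, and most of this sum was LYZ. Within it, ITGAM had 290.1 and 353 against 198 and 167 (adjusted p = 3.54e-05 from limma), and TYROBP had 329 and 376 against 205 and 186 (adjusted p = 9.99e-06 from limma), so these monocytic markers were not level between the lines. The part of these differences in the line term of SQLE was not tested, and in bulk RNA fewer cells with a transcript and less of it per cell cannot be told apart. With 1 subline per receptor, the receptor and other differences between the sublines cannot be told apart either.

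Of 68 other genes of sterol and lipid handling, 58 were measured and 53 reached the floor. Their median log2 ratio with NTHi was 0.14 in the Siglec‐14 line and -0.11 in the Siglec‐5 line, where all 13935 genes above the floor had 0.08 and -0.11. In the limma fit 0 of 53 passed for NTHi, and for the line 8 were higher in the Siglec‐14 line and 2 lower, against 6.24% and 4.95% of all genes.

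OLR1, the receptor LOX-1 for oxidized lipoproteins, had signals of 78.9 and 121 in the Siglec‐14 line and 1.67 and 3.96 in the Siglec‐5 line. It was above the floor in 1 line only, and so at least 4.93-fold higher without and 7.58-fold higher with NTHi. CD36, a scavenger receptor, had 68.0 and 75.05 against 45.3 and 47.2, whereas VLDLR had 183 and 184 against 314 and 231 and was lower in the Siglec‐14 line (adjusted p = 0.0147 from limma). The 2 remaining receptors above the floor, SCARB1 and LRP8, stayed within 1.5-fold.

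CH25H makes the LXR ligand and SREBP inhibitor 25-hydroxycholesterol. It had 34.4 and 25.97 in the Siglec‐14 line and was below the floor in the Siglec‐5 line (4.10 and 2.33), at least 2.15-fold and 1.62-fold apart. CYP7B1, which hydroxylates oxysterols further, had 88.6 and 126 against 63.3 and 61.4 (adjusted p = 0.00719). The fatty acid genes were listed as targets of SREBP-1, and 11 were measured. Of these, ME1, LPIN1 and ACSS2 were 1.5-fold or more higher in the Siglec‐14 line with NTHi. ME1, a source of NADPH, had 1293 and 1465 against 485 and 519, or 2.67-fold and 2.82-fold (adjusted p = 1.5e-19 from limma). LPIN1 had 285 and 370 against 209 and 237 (adjusted p = 0.0138 from limma), and ACSS2 154 and 212 against 164 and 142. FASN, SCD and ACLY, of the same list, stayed within 1.5-fold in all comparisons, with 115 and 129 against 157 and 164 for FASN. SMPDL3A, an LXR target of macrophages, had 173 and 204 against 97.6 and 87.2 (adjusted p = 1.84e-06 from limma). The other LXR targets LPCAT3 and PLTP stayed within 1.5-fold, as did RXRA and RXRB, the partners of LXR. NCEH1, which hydrolyzes cholesterol esters, had 279 and 277 against 202 and 173 (adjusted p = 0.0102), and ERLIN1, which takes part in the turnover of sterol-controlled proteins, was lower with 1938 and 1581 against 2798 and 2387 (adjusted p = 0.00688). FAXDC2, a sterol oxidase homolog, had 78.8 and 39.5 against 9.94 and 18.6 (adjusted p = 4.15e-06), and its signals in the Siglec‐5 line lay near or below the floor. By measured signal, FNTB, ACSS2, OSBP and SULT2B1 were 1.5-fold or more higher in the Siglec‐14 line with NTHi (at least 1.35-fold against the floor for FNTB), and ELOVL6 was 1.53-fold lower there without NTHi, with no limma term passed by any of these 5.

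**Figure D4:**
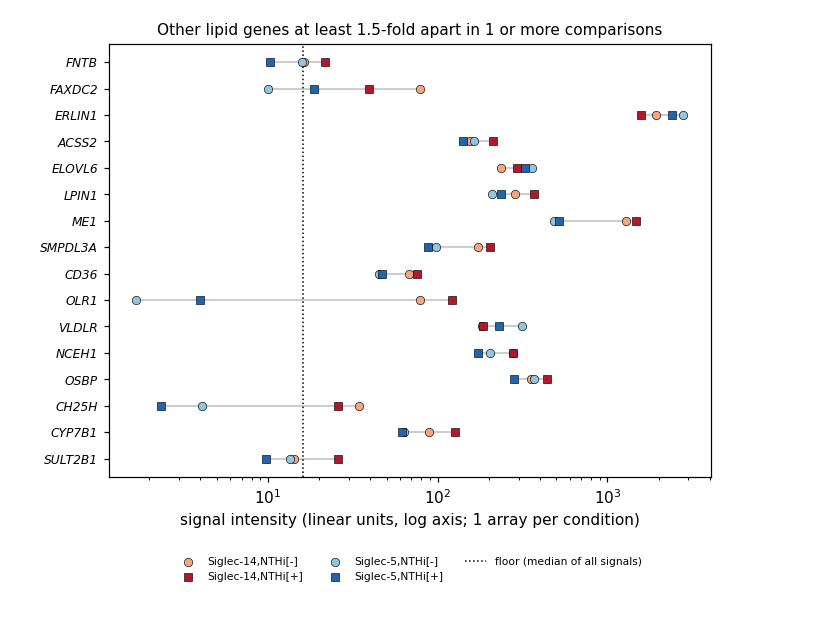
Signal intensity (log axis) on the 4 arrays of 16 other lipid genes that were at least 1.5-fold apart in 1 or more comparisons, with the floor of 16.02 as a dotted line. For OLR1, CH25H and ME1, both points of the Siglec‐14 line lie to the right of both points of the Siglec‐5 line.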

How the data were processed

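RNA (250 ng per sample) from the 4 samples was hybridized to Affymetrix human U133 Plus 2.0 arrays. The authors made the deposited signal intensities, linear values for 54675 probe sets, with GCOS per the submitters' processing notes, and they were used as deposited. The study's methods describe standardization on the summed intensity of all probes, yet the sums over the probe sets of an array ran from 1.27e+07 to 1.40e+07, so the levelling behind these values is uncertain. Gene names came from the platform annotation, in which 41097 probe sets have 1 gene, 1801 several and 11777 none. Of the 54675 probe sets, 62 are controls and were left out. The members and gene lists were chosen with earlier results of these data known.

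A gene was represented by its brightest single-gene probe set by mean signal. A pair of arrays was called different at 1.5-fold by the measured signals where the higher one reached the floor, and where the lower one was below the floor the fold is given as a bound against it ("at least"). limma 3.58.1 (R 4.3.3) was fitted to log2 signals of 31981 probe sets with line and NTHi as additive terms, eBayes with an intensity trend and Benjamini-Hochberg adjustment over all of them (threshold 0.05, 1 residual degree of freedom). Its p-values rest on the trend, not on replicates. The fit was tested on simulated data, where the NTHi term recovered 74 of 100 probe sets given a log2 change of 1 and 100 of 100 given 2. Of 31781 unchanged probe sets, 28 were called for that term. Smaller changes, such as those of the enzymes, were not simulated. Changes were given only to brighter probe sets, with normal noise independent between arrays. No offset between arrays was simulated. The counts therefore do not check the p-values of dim members or of arrays that are not level. All members that were measured are named, and other lipid genes were named where a comparison or term called them, with SREBP-1 and LXR genes named after their values were seen. Alternatives covered scaling, floor, pseudocount, fold, probe set and model. Promoter sequences came from RefSeq (GRCh38.p14), with the 250 bases before each start searched and those after it left out, since they can be untranslated. Certain genes of the pathway are not reported here.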

Additional observations from a re-analysis of the deposited data

Results flagged for a closer look

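The log2 ratio of SREBF1 with NTHi in the Siglec‐14 line minus that in the Siglec‐5 line was 2.33. It drew attention because SREBF1 was higher with NTHi in 1 line and lower in the other. With 1 array per condition, the difference was not tested, and 3 of the 4 signals (15.0, 18.5 and 25.2) lay near the floor of 16.02.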

How the results depend on the processing

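Of the values for single genes, 80 kept their direction and side of the threshold, 14 fell short of it and 0 reversed. A value was counted only under settings where the higher signal still reached the floor, so calls lost to the floor are not in these counts. ABCG1 is thus left out with probe sets lacking _s_at or _x_at. There its signals of 4.95 and 4.03 in the Siglec‐14 line against 9.85 and 9.18 were below the floor and ran the other way. Over all members above the floor, the median log2 ratio with NTHi in the Siglec‐5 line was 0.0308 as deposited, 0.1346 with scaling on bright probe sets and 0.1361 with trimmed mean scaling. Between the lines with NTHi it was 0.2112 as deposited and 0.101 under median scaling. Without NTHi it was 0.0128 as deposited, 0.1642 under quantile normalization, 0.1834 under bright scaling and 0.1555 under the trimmed mean, and below 0 with probe sets lacking _s_at or _x_at (-0.0885), the mean over probe sets (-0.0535) and median scaling (-0.0179), so its direction is not settled. Members higher for the NTHi term numbered 2 under median scaling, 1 under quantile, 5 under bright and 5 under trimmed mean scaling, with 1 lower under each of the last pair. For the line term, 2 were higher under median scaling, 12 under quantile, 12 under bright and 11 under trimmed mean scaling, and 0 without the trend. Members lower for the line numbered 3 under median scaling, 2 under quantile, 1 under bright, 1 under trimmed mean scaling and 1 with the floor at the 75th percentile.

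Fold calls with NTHi in the Siglec‐14 line were 0 higher at the 75th percentile floor, 1 with the pseudocount, and 1 lower with the floor at the 25th percentile, no floor or the mean over probe sets. In the Siglec‐5 line, 1 was higher at 1.3-fold, with no floor and under quantile, bright and trimmed mean scaling. There, 2 were lower at 1.3-fold and with probe sets lacking _s_at or _x_at, and 0 at 2-fold, at the 75th percentile floor, with the mean over probe sets and with the pseudocount. Between the lines with NTHi, 8 were higher at 1.3-fold, 2 at 2-fold, 2 with the mean over probe sets, 2 under median scaling and 1 at the 75th percentile floor. There, 2 were lower at 1.3-fold, and 1 with the mean over probe sets and under quantile normalization. Without NTHi, 1 was higher at 1.3-fold, with the floor at the 25th percentile, no floor, and quantile, bright and trimmed mean scaling, and 3 were lower at 1.3-fold and 1 with the mean over probe sets. Shares over all genes were counted only for 1.5-fold with signals as deposited, at the floor and at the 75th percentile. Fold counts under the other settings have no such share beside them and are not read as results about the members. The cause of these shifts was not tested. No paired analysis was possible because each condition has 1 array and the labels carry no replicate numbers. Leaving out an array leaves no residual degrees of freedom and was not run.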
